A study of Mus musculus with 4 samples.

Results

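The genes described are the 9 paralogues that fill 4 subunit positions of the BAF nucleosome remodelling complex: the ATPases Smarca4 and Smarca2, the scaffold subunits Smarcc1 and Smarcc2, the SMARCD subunits Smarcd1, Smarcd2 and Smarcd3, and the actin-related subunits Actl6a and Actl6b. They were taken by symbol from the deposited gene table, where all 9 were found among 25965 listed genes. The table holds bulk RNA-seq of 4 libraries. All come from female mouse embryonic stem cells (mESCs), an F1 of an FVB/NJ dam and a CAST/EiJ sire. The day 0 library came from undifferentiated cells that had been expanded in 2i medium. The other libraries were taken at day 6 of differentiation, begun by weaning cells from 2i, after retroviral transduction at day 2 and puromycin selection on day 3, from cells with a non-silencing hairpin (Nons) or with the Smarca4 hairpins Smarca4.4 or Smarca4.6. Each group is 1 library, so no difference could be set against a spread between replicates, no test was run, and every interval below covers counting error only. Nons day 6 differs from day 0 in differentiation and also in transduction and selection, and these cannot be told apart. Summed reads of Y-linked genes also differed, with 0 at day 0 and 106 to 165 in each day 6 library. Groups follow the titles of the samples, because a genotype field names Smarcc for every day 6 library, Nons included, and names the non-silencing control for day 0.

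BAF complexes use the energy of ATP to slide and evict nucleosomes. Each complex carries a single ATPase, either Smarca4 (also called Brg1) or Smarca2 (Brm), built onto a core scaffold of SMARCC and SMARCD subunits, and the actin-related subunit binds the ATPase. Mouse embryonic stem cells are known for a form rich in Smarca4, Smarcc1, Smarcd1 and Actl6a, whereas Smarcc2 joins in differentiated cells, Smarcd3 is known from heart and muscle progenitors, and Actl6b replaces Actl6a in neurons.

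The hairpin guides are shown first because they define what each knockdown library was designed to lose. Each guide has 22 bases and is written 5′ to 3′ with its seed, bases 2 to 8, in capitals.
Smarca4.4 guide: tTTATTACtgtctgactccagt
Smarca4.6 guide: tTGCATAAtagtgttcatcagt
Nons guide: cTTACTCTcgcccaagcgagag
Among 141767 GENCODE M21 transcripts, the full complement of each Smarca4 guide was found in transcripts of 1 gene, Smarca4, and that of the Nons guide in transcripts of 0 genes. The Smarca4.4 site lies at chr9:21703327-21703348 (mm10, plus strand), in exon 34 of the 34 exons of a coding transcript of 6376 bases, where it starts at base 359 of the 3′ UTR. It is present in 3 of the 4 protein-coding Smarca4 transcripts. The Smarca4.6 site lies at chr9:21670504-21670525, in exon 22 and inside the coding sequence, and is present in 4 of those 4 transcripts.

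**Figure D1:**
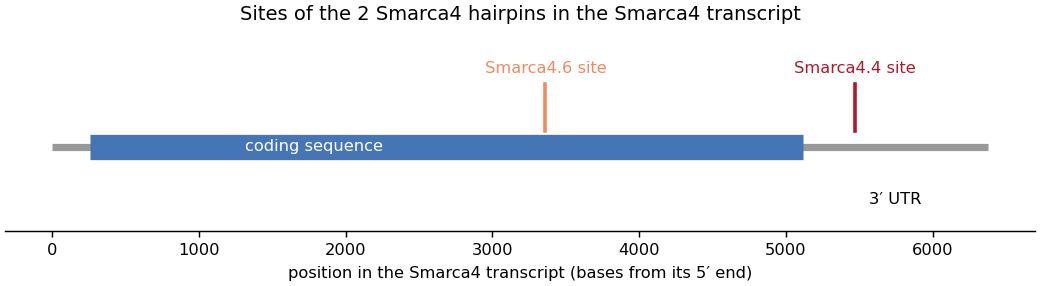
Map of a coding Smarca4 transcript of 6376 bases, drawn to scale in bases from its 5′ end, with the coding sequence as the thick bar and the untranslated ends as thin grey bars. The Smarca4.6 site starts at base 3362, in the coding sequence, and the Smarca4.4 site at base 5473, past the stop codon.

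The other 8 members were searched for the best ungapped match to each 22-base site, since Smarca4 and Smarca2 are close in sequence. The pair below shows the Smarca4.6 site and its nearest match in Smarca2, with the differing bases in capitals in the Smarca2 line.
Smarca4.6 site in Smarca4: actgatgaacactattatgcaa
Nearest Smarca2 match: actTatgaacacCatCatgcaG
The Smarca2 match differs at 4 positions, G4T, T13C, T16C and A22G, counted from 1 at the 5′ end of the site, with the Smarca4 base first. For Smarca4.4 the nearest Smarca2 match has 7 differences. The other 7 members had 7 to 9 differences from either site. The 7-base seed complement of Smarca4.4, GTAATAA, occurs in the 3′ UTR of Smarca4 and of Smarcc1, and in 10.2% of the 3′ UTRs of 20578 coding genes. In Smarca4 it is part of the full site, so that match was set by the hairpin design. The 3′ UTR of Smarcc1 has 2265 bases, against a median of 724 over those coding genes. The seed complement of Smarca4.6, TTATGCA, occurs in the 3′ UTR of 0 of the 9 members and in 7.90% of all. These are matches of letters on the transcript strand, not measured binding.

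Library totals were 18599402 reads for day 0 and 45759793 for Nons. The Smarca4.4 and Smarca4.6 libraries held 47143727 and 36495582 reads. The level that 3 reads can show was 0.161 CPM (the deposited scale, reads relative to the library total) at day 0 and 0.0636 to 0.0822 CPM at day 6. The labelled cell type was checked with 8 pluripotency markers, which were all above 3 reads in every library, with a summed level of 4389.9 CPM at day 0 and 846 to 1117 CPM at day 6. Most of the day 6 sum was Pou5f1, with a log2 CPM of 9.50 at day 0 and 9.45 to 9.94 at day 6, while the other 7 markers were lower in every day 6 library, as for Nanog with 9.96 at day 0 and 5.53 to 5.92 at day 6. Although the cells are labelled female, reads of 4 Y-linked genes summed to 0 at day 0 but to 106 to 165 in each day 6 library. The part of those reads in any member's value was not tested. In bulk RNA, fewer cells of a type and less RNA per cell cannot be told apart.

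Smarca4, the main ATPase of mESCs and the target of both hairpins (chr9:21616169-21704230, plus strand, mm10), had 244 CPM at day 0, 229 CPM with Nons, 131 CPM with the Smarca4.4 hairpin and 174 CPM with Smarca4.6. Its reads numbered 4542, 10478, 6190 and 6338 in the same order. Both knockdown libraries were below Nons and day 0, and Smarca4.4 was the lower of the pair. Against Nons the log2 difference of Smarca4 was -0.80 (95% counting interval -0.85 to -0.76) in Smarca4.4, and 0.792% of the 13264 genes kept lay lower there. In Smarca4.6 it was -0.40 (-0.44 to -0.35), and 8.47% of the genes kept lay lower. Smarca4.4 was below Smarca4.6 by a log2 difference of -0.40 (-0.45 to -0.35), so the libraries carried different amounts of the target. From day 0 to Nons day 6 its log2 difference was -0.093 (-0.14 to -0.042).

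Smarca2, the alternative ATPase (chr19:26605115-26778321, plus strand), had 19.4 CPM at day 0, 3.65 CPM with Nons, 4.22 CPM with the Smarca4.4 hairpin and 4.00 CPM with Smarca4.6. These rest on 361, 167, 199 and 146 reads. Day 0 stood apart, and the counting intervals of the 3 day 6 libraries overlapped (3.12 to 4.25, 3.66 to 4.85 and 3.38 to 4.70 CPM). From day 0 to Nons day 6 Smarca2 was 5.32-fold lower, a log2 difference of -2.41 (-2.68 to -2.14), and 2.95% of all genes kept lay lower still. Against Nons the log2 difference of Smarca2 was 0.21 (-0.094 to 0.52) with the Smarca4.4 hairpin and 0.13 (-0.20 to 0.46) with Smarca4.6. Both values were above 0 and both intervals included 0. After centring on the median of all genes the value for Smarca4.6 was 0.069.

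**Figure D2:**
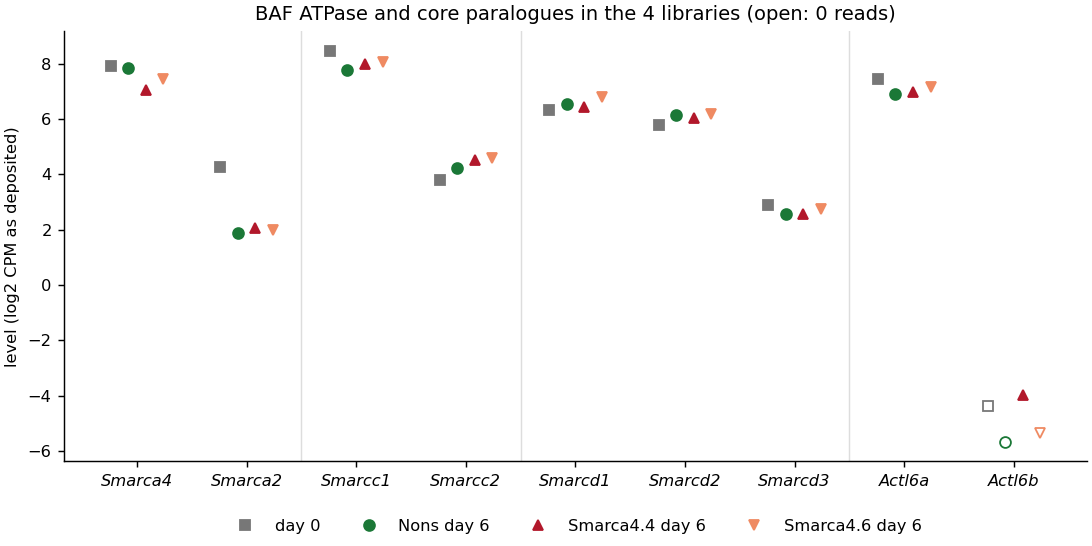
Levels of the 9 members, as log2 CPM from the deposited table, with 1 point per library (square day 0, circle Nons day 6, triangles the Smarca4 hairpins). Open points mark 0 reads and sit at the value written for 0 reads; Smarca2 sits at 4.28 at day 0 and between 1.87 and 2.08 at day 6, and Smarca4 is lowest in Smarca4.4.

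Levels of different genes were compared after division by the length of their annotated exons. On that scale the Smarca4 level was 37.7 CPM per kb at day 0 and 35.4 CPM per kb with the Nons hairpin. With Smarca4.4 it was 20.3 CPM per kb and with Smarca4.6 it was 26.8 CPM per kb. The Smarca2 level was 1.36 CPM per kb at day 0, 0.256 with Nons, 0.296 with Smarca4.4 and 0.280 with Smarca4.6. Smarca4 was the higher ATPase in every library. The ratio of Smarca4 to Smarca2 per length was 27.7 (24.9 to 30.9) at day 0 and 138 (119 to 162) in Nons. It was 68.5 (59.5 to 79.3) with the Smarca4.4 hairpin and 95.7 (81.2 to 114) with Smarca4.6. Dividing by the longest transcript instead, which for Smarca2 is 5921 bases against 14269 bases of exons from 46 annotated transcripts, gave 11.7, 58.3, 28.9 and 40.3. The order of the libraries does not depend on length, which cancels when libraries are compared.

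The log2 change of the ATPase ratio from day 0 to Nons day 6 was 2.32 (2.04 to 2.60), the sum of 2.41 from Smarca2 and -0.093 from Smarca4. Against Nons the change in Smarca4.4 was -1.01 (-1.32 to -0.70), with -0.80 from Smarca4 and -0.21 from Smarca2. With the other hairpin, Smarca4.6, the change was -0.53 (-0.86 to -0.20), with -0.40 from Smarca4 and -0.13 from Smarca2. The knockdown ratios lay between those of Nons and day 0. Most of their difference from Nons lay in the Smarca4 level, and most of the day 0 difference lay in the Smarca2 level. Per kb of exon, the difference from Nons in Smarca4.4 was -15.1 CPM for Smarca4 and 0.040 CPM for Smarca2, or 0.266% of the size of the former. The same differences in Smarca4.6 were -8.54 and 0.025 CPM per kb, or 0.288%. Both intervals of the Smarca2 difference include 0, as given above. With the longest transcript as the length these shares were 0.630% and 0.683%.

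Smarcc1, the SMARCC scaffold of the mESC form (chr9:110132037-110240178), had 355 CPM at day 0, 221 CPM with Nons, 254 CPM with the Smarca4.4 hairpin and 268 CPM with Smarca4.6. It was highest at day 0 and lowest in Nons. Its log2 difference from day 0 to Nons day 6 was -0.68 (-0.73 to -0.64). Against Nons it was 0.20 (0.16 to 0.24) with the Smarca4.4 hairpin and 0.28 (0.24 to 0.32) with Smarca4.6.

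Smarcc2, its paralogue (chr10:128459236-128490173), had 13.98 CPM at day 0, 18.8 CPM with Nons, 23.2 CPM with the Smarca4.4 hairpin and 24.2 CPM with Smarca4.6. Day 0 was the lowest and both knockdown libraries were above Nons. The log2 difference was 0.43 (0.23 to 0.64) from day 0 to Nons, and 0.30 (0.17 to 0.43) with the Smarca4.4 hairpin and 0.36 (0.22 to 0.50) with Smarca4.6 against Nons. Smarcc1 and Smarcc2 thus differed in opposite directions between day 0 and Nons, and lay on the same side of Nons in both knockdown libraries.

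The ratio of Smarcc1 to Smarcc2 per length was 17.98 (15.9 to 20.4) at day 0 and 8.31 (7.75 to 8.92) in Nons. It was 7.74 (7.27 to 8.24) with the Smarca4.4 hairpin and 7.88 (7.35 to 8.45) with Smarca4.6. The change from day 0 to Nons was -1.11 on the log2 scale (-1.32 to -0.91), or 2.16-fold. Against Nons the changes were -0.10 (-0.24 to 0.032) and -0.078 (-0.22 to 0.065), and both intervals included 0. Smarcc2 made up 5.27% of the SMARCC level per length at day 0 and 10.7% to 11.4% in the day 6 libraries.

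Smarcd1, the SMARCD subunit most abundant here (chr15:99702287-99713995), had 80.4 CPM at day 0, 94.1 CPM with Nons, 87.7 CPM with the Smarca4.4 hairpin and 112 CPM with Smarca4.6. Smarca4.6 was the highest library and day 0 the lowest. Its log2 difference was 0.23 (0.14 to 0.31) from day 0 to Nons, -0.10 (-0.16 to -0.040) in Smarca4.4 against Nons and, on the other side of 0, 0.26 (0.19 to 0.32) in Smarca4.6. Of the annotated exon bases of Smarcd1, 7.13% also lie in exons of Gm17349 on the other strand, which had a log2 CPM of 1.31 to 2.30.

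Smarcd2 (chr11:106263179-106272972, minus strand) had 55.2 CPM at day 0, 71.0 CPM with Nons, 65.4 CPM with the Smarca4.4 hairpin and 73.4 CPM with Smarca4.6. As for Smarcd1, day 0 was lowest and Smarca4.6 highest. The log2 difference was 0.36 (0.26 to 0.47) from day 0 to Nons, -0.12 (-0.19 to -0.046) in Smarca4.4 and, with an interval that includes 0, 0.047 (-0.027 to 0.12) in Smarca4.6. The last value was -0.016 after centring on the median of all genes.

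Smarcd3, known from heart and muscle progenitors (chr5:24590818-24602012, minus strand), had 7.47 CPM at day 0, 5.94 CPM with Nons, 6.00 CPM with the Smarca4.4 hairpin and 6.66 CPM with Smarca4.6. It was the lowest SMARCD gene in every library, on 139 to 283 reads. Its log2 difference from day 0 to Nons was -0.33 (-0.63 to -0.025). Against Nons the intervals included 0, with values of 0.014 (-0.23 to 0.26) with the Smarca4.4 hairpin and 0.16 (-0.092 to 0.42) with Smarca4.6. After centring on the median of all genes these were -0.024 and 0.10. Of its annotated exon bases 48.2% also lie in exons of Chpf2 on the other strand, whose log2 CPM was 4.04 at day 0 and 3.46 to 3.57 at day 6, so Chpf2 too was highest at day 0. No source states that strand was used in counting, and reads of Smarcd3 and Chpf2 cannot be told apart over that stretch. Of 8 cardiac and striated muscle markers, 5 to 7 were above 3 reads, with a summed level of 4.95 CPM at day 0 and 9.48 to 12.9 CPM at day 6. Of these, 4 were higher in every day 6 library than at day 0 and 2 lower (Tnnt2 and Actn2). Among the 4, Myh6 had 7 reads at day 0 and 218 to 271 at day 6, and Actc1 had 0 and 58 to 247. The others rest on few reads, with 5 at day 0 and 13 to 16 at day 6 for Nkx2-5, and 1 and 2 to 9 for Myod1. Of 6 mesoderm and heart progenitor markers, 2 or 3 were above 3 reads, with a sum of 6.94 CPM at day 0 and 3.23 to 6.82 CPM at day 6. In that list 2 (Isl1 and Gata4) were higher in every day 6 library and 3 (T, Tbx5 and Hand2) lower. Tbx5 and Hand2 had at most 2 reads in any library, under the floor of 3 reads, so no direction is read from them. T had 109 reads at day 0 and 12 to 91 at day 6. The part of either list in the Smarcd3 values was not tested.

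From day 0 to Nons the SMARCD ratios differed less than those of the ATPases or SMARCC subunits. Smarcd1 to Smarcd2 per length was 1.30 at day 0 and 1.18 (1.13 to 1.24) with Nons. It was 1.19 (1.14 to 1.25) with the Smarca4.4 hairpin and 1.37 (1.30 to 1.43) with Smarca4.6. The change against Nons was 0.015 on the log2 scale (-0.079 to 0.11) with the Smarca4.4 hairpin and 0.21 (0.11 to 0.31) with Smarca4.6. Smarcd1 to Smarcd3 was 13.7 at day 0, 20.1 with Nons, 18.6 with Smarca4.4 and 21.5 with Smarca4.6. Smarcd2 to Smarcd3 was 10.5, 17.04, 15.6 and 15.7 in the same order. Both ratios to Smarcd3 were higher in Nons than at day 0, by 0.56 (0.24 to 0.87) and 0.69 (0.37 to 1.01) on the log2 scale. Against Nons the intervals of both ratios included 0 in both knockdown libraries. In all of these ratios the Smarcd3 reads cannot be told apart from those of Chpf2 over the shared exons, as given above.

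Actl6a, the actin-related subunit of dividing cells (chr3:32708546-32726968), had 173 CPM at day 0, 119 CPM with Nons, 126 CPM with the Smarca4.4 hairpin and 145 CPM with Smarca4.6. Day 0 was highest and Nons lowest, the order also seen for Smarcc1. Its log2 difference was -0.54 (-0.61 to -0.48) from day 0 to Nons, 0.081 (0.028 to 0.13) with the Smarca4.4 hairpin and 0.29 (0.23 to 0.34) with Smarca4.6. After centring on the median of all genes the value for Smarca4.4 was 0.043. Of its exon bases 11.6% also lie in exons of Mrpl47 on the other strand, which had a log2 CPM of 6.08 to 6.22.

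Actl6b, the neuronal paralogue of Actl6a (chr5:137553517-137569582), had 3 reads in the Smarca4.4 library and 0 reads in each of the other 3 libraries. No library was above the 3 reads taken as the floor, so no fold is given. Taking 3 reads per library as the limit of a count of 0, Actl6b was at most 0.161 CPM at day 0, 0.0656 CPM in Nons and 0.0822 CPM in Smarca4.6, and the upper ends of the exact 95% intervals were 0.198, 0.0806 and 0.101 CPM. With the same 3 reads Actl6a was, per length, at least 1179-fold above Actl6b at day 0, 1989.7-fold in Nons and 1935-fold in Smarca4.6. The lower ends of the exact 95% intervals of these ratios were 959, 1618 and 1573. In Smarca4.4 the ratio was 2168 (exact interval 742 to 10517). Of 10 neuronal markers 9 were listed, and all 9 were above 3 reads in each day 6 library, with a summed level of 185 to 236 CPM. At day 0 their sum was 237 CPM from 5 genes above 3 reads, while Rbfox3, Syt1 and Dcx had 0 reads. Most of each sum was Tubb3 and Stmn2. Of the 9 markers, 6 were higher in every day 6 library than at day 0 and 2, Tubb3 and Elavl4, were lower in every one. Among the 6 were Syt1, with 0 reads at day 0 and 257 to 448 at day 6, and Dcx, with only 4 to 9 at day 6. Actl6b was at or under the floor throughout.

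**Figure D3:**
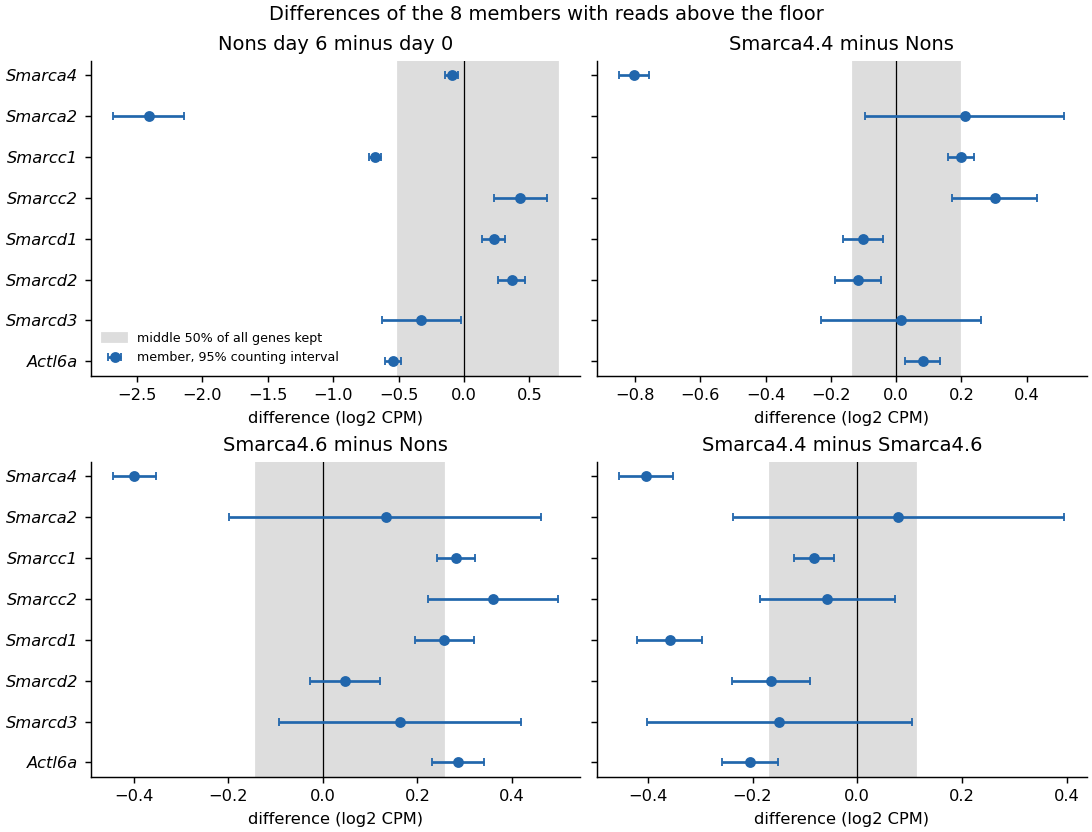
Log2 CPM differences of the 8 members above 3 reads, with 95% counting intervals as bars, for 4 pairs of libraries; the horizontal axes differ between panels. Grey bands span the middle 50% of the 13264 genes kept; Smarca2 (-2.41), Smarcc1 (-0.68) and Actl6a (-0.54) lie left of the band from day 0 to day 6, and Smarca4 lies left of it in each knockdown comparison.

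Differences were counted against those of all genes with a mean log2 CPM of at least 0 over the 4 libraries, which kept 13264 genes and 8 of the 9 members, all but Actl6b. From day 0 to Nons day 6, 1 of the 8 members (Smarca2) was at least 2-fold lower, against 12.3% of all genes kept, and 0 were at least 2-fold higher, against 19.6%. At 1.2-fold, 4 of 8 were lower (Smarca2, Smarcc1, Smarcd3 and Actl6a), against 35.5%, and 2 of 8 were higher (Smarcc2 and Smarcd2), against 39.6%. For 8 genes these counts are not far from the shares over all genes and are no result about the members as a group. The median difference of the 8 was -0.21 against 0.031 for all genes kept.

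Against Nons, 0 of 8 members differed by 2-fold in Smarca4.4, where 1.19% of all genes did, and 0 of 8 in Smarca4.6, where 1.82% did. At 1.2-fold in Smarca4.4, 1 member (Smarca4) was lower against 13.1% of all genes, and 1 member (Smarcc2) was higher against 17.5%. In Smarca4.6, 1 member (Smarca4) was lower against 15.2%, and 3 members (Smarcc1, Smarcc2 and Actl6a) were higher against 24.3%. After centring on the median of all genes the 3 became 1, Smarcc2, with a log2 difference of 0.30. Both hairpins were designed against Smarca4, so its place among the lower genes is no result about the members as a group. No other member was at least 1.2-fold lower in either knockdown library. Without Smarca4, the median of the other 7 members was 0.081 in Smarca4.4 and 0.26 in Smarca4.6, against 0.038 and 0.064 for all genes kept. Both comparisons share the Nons library, so their values stand side by side and are not independent.

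The hairpins were also compared with each other without Nons. In Smarca4.4 against Smarca4.6, 0 of 8 members were at least 1.2-fold higher, against 11.5% of all genes, and 2 of 8 were lower, against 13.4%. These were Smarca4 (-0.40) and Smarcd1, which differed by -0.36 on the log2 scale (-0.42 to -0.30), and 7.36% of the genes kept lay below Smarcd1. No member reached 2-fold, as 0.656% of all genes did. Actl6a was also lower in Smarca4.4 than in Smarca4.6, by -0.20 (-0.26 to -0.15), and Smarcd2 by -0.16 (-0.24 to -0.089). For Smarca2, Smarcc2 and Smarcd3 the interval of the difference between the hairpins included 0.

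**Figure D4:**
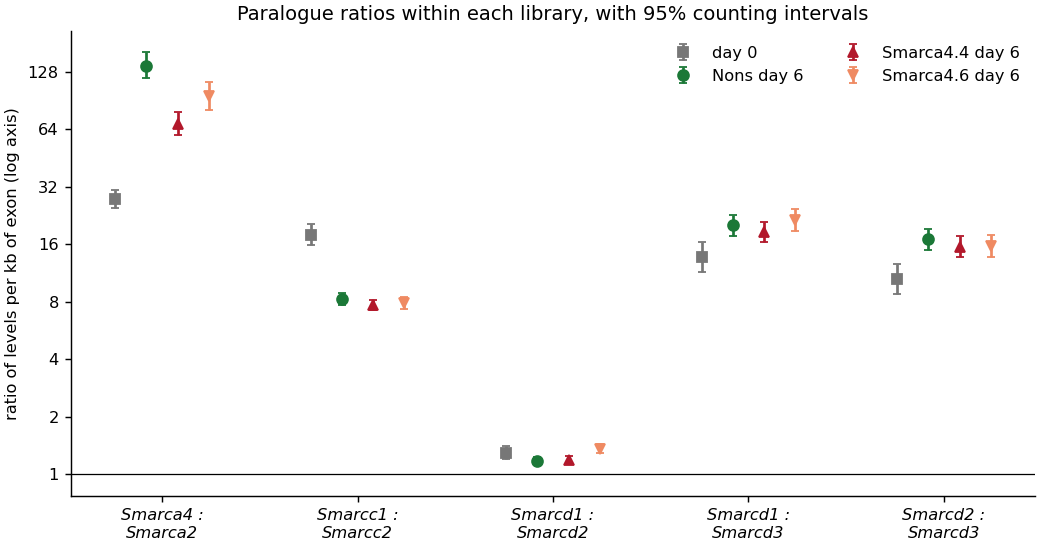
Ratios of paralogue levels per kb of exon within each library, on a log axis, with 95% counting intervals and 1 point per library. Smarca4 to Smarca2 runs from 27.7 at day 0 to 138 in Nons, with both knockdown libraries between them, whereas Smarcc1 to Smarcc2 separates day 0 (17.98) from the 3 day 6 libraries (7.74 to 8.31).

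The transcript levels of the paralogues of each position were also summed, and the protein that fills a position was not measured. The ATPase sum was 39.1 CPM per kb at day 0 and 35.6 CPM per kb with Nons. It was 20.6 CPM per kb with Smarca4.4 and 27.1 with Smarca4.6, or 57.8% and 76.1% of the Nons sum. In the order day 0, Nons, Smarca4.4, Smarca4.6, the SMARCC sum was 47.8, 31.6, 36.6 and 38.6 CPM per kb. The SMARCD sum was 36.8, 44.3, 41.2 and 49.7. The Actl6a level, which stands for its position, was 44.6, 30.6, 32.3 and 37.3 CPM per kb. From day 0 to Nons day 6 the log2 difference was -0.60 (-0.64 to -0.55) for the SMARCC sum, -0.54 for Actl6a, -0.13 (-0.18 to -0.084) for the ATPase sum and 0.27 (0.20 to 0.33) for the SMARCD sum. Against Nons the difference of the SMARCC sum was above 0 in both knockdown libraries, at 0.21 (0.17 to 0.25) and 0.29 (0.25 to 0.33). The difference of the SMARCD sum was -0.11 (-0.15 to -0.060) with the Smarca4.4 hairpin and 0.16 (0.12 to 0.21) with Smarca4.6. Smarca4, Smarcc1, Smarcd1 and Actl6a led their positions in 16 of the 16 pairs of position and library.

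**Figure D5:**
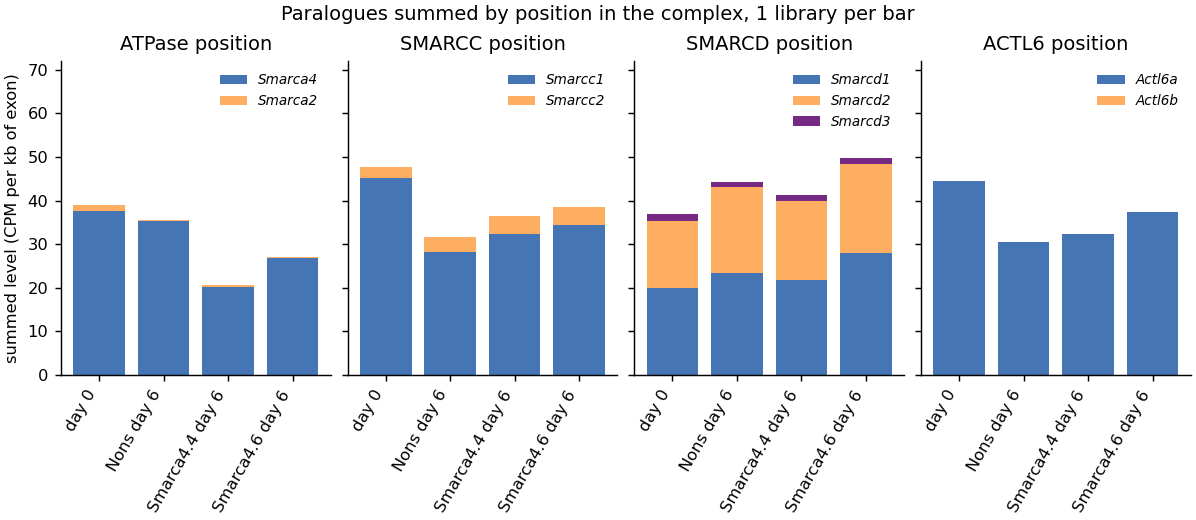
Stacked levels of the paralogues of each position, in CPM per kb of annotated exon, with 1 bar per library and axes starting at 0. The ATPase bar reaches 35.6 in Nons, 20.6 with Smarca4.4 and 27.1 with Smarca4.6, with almost no Smarca2 in any day 6 bar, and the SMARCD position is the only one highest in Smarca4.6.

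The remaining subunits of BAF, PBAF and ncBAF were taken as a list of 21 genes, of which 20 were listed (Bicra as Gltscr1; Bicral was not found by symbol) and 19 passed the filter. Between day 0 and Nons day 6, 3 of the 19 were at least 2-fold higher, against 19.6% of all genes kept, and 1 was lower, against 12.3%. Their median was 0.026 against 0.031 for all genes kept. The 3 were Bcl11a (4.02, from 7 reads at day 0), Bcl11b (2.25, from 14 reads) and Bcl7c (1.44). Bcl11a and Bcl11b encode zinc finger proteins found in neural and lymphoid BAF. The 1 lower gene was Dpf1 (-1.96), which encodes a neuronal PHD finger subunit. Against Nons, 1 of the 19 was at least 1.2-fold higher in Smarca4.4, against 17.5% of all genes kept, and 1 lower, against 13.1%, with a median of -0.017 for the 19. In Smarca4.6, 4 were higher, against 24.3%, and 1 lower, against 15.2%, with a median of 0.11. These counts are near or below the shares over all genes and are no result about the list. Dpf1 was higher in both libraries, by 0.38 and 0.91 on the log2 scale. The other genes in these counts, named after their values were seen, were Bcl11a (-0.56) in Smarca4.4, and Arid1a (0.35), Arid1b (0.38), Bcl11b (0.43) and Bcl7b (-0.31) in Smarca4.6. Dpf3, which was under the filter, had differences of 1.13 and 0.74 on 12 reads in Nons, and the interval of the second (-0.43 to 1.95) included 0.

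The genes nearest in pattern to each ATPase were found by the Euclidean distance between log2 CPM values centred on their mean over the 4 libraries, among 9802 genes with at least 100 reads in every library. For Smarca4 they were Lgals3bp (distance 0.13), Tcte2 (0.14) and 1810014F10Rik (0.15). For Smarca2 they were Sirpa (0.060), Gdf3 (0.11) and Mtap7d2 (0.11). The log2 CPM of Sirpa was 5.66, 3.26, 3.44 and 3.31 in the order day 0, Nons, Smarca4.4, Smarca4.6, beside 4.28, 1.87, 2.08 and 2.00 for Smarca2.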

How the data were processed

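RNA-seq of 4 libraries was analysed, with 1 library in each group. The authors sequenced paired ends, trimmed adapters (trim_galore), mapped to mm10 masked at FVB and CAST differences (HISAT2) and counted reads over genes in SeqMonk. The strand setting is not given in the sources used here. The deposited values are log2 CPM, with both alleles combined, and 0 reads are written as 0.9 of 1 read. Back-transformed nonzero values were whole reads, within 0.05, for 99.92% to 99.98% of values, which gave reads and library totals. Differences are between deposited log2 CPM values. Intervals are exact 95% intervals from the reads (Clopper-Pearson for levels and differences, the conditional odds ratio for changes of a ratio, and a normal approximation on the log scale for position sums). Reads are not independent molecules, so intervals and the floor of 3 reads cover counting error only. No test was possible with 1 library per group. Calls are differences of at least 1.2-fold or 2-fold among genes with a mean log2 CPM of at least 0. Exon lengths and transcripts came from GENCODE M21 on GRCm38, the mm10 assembly; hairpin guides came from the oligos of the study.

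The members and lists were chosen with earlier results of these data known. Of the other subunits, those at least 2-fold different from day 0 to Nons, or at least 1.2-fold in 1 direction with both hairpins, are named. Alternatives were a pseudocount of 1 CPM, centring on the median of all genes, trimmed-mean scaling, 0.5 added reads, other lengths and other filters. The scripts were checked on simulated reads. The tools were matplotlib 3.10.9, pandas 2.3.3, scipy 1.17.1 and numpy 2.4.6 under Python 3.11.15.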

Additional observations from a re-analysis of the deposited data

Results flagged for a closer look

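Smarcd1 lay on opposite sides of Nons in the knockdown libraries, and both counting intervals left out 0. Its log2 difference was -0.10 in Smarca4.4 and 0.26 in Smarca4.6. Of all genes kept, 28.5% lay lower than Smarcd1 in Smarca4.4 and 24.9% lay higher in Smarca4.6. After centring on the median of all genes the differences were -0.14 and 0.19. The share of all genes that lay on opposite sides of Nons was not counted. Each value comes from 1 library, and the difference between the hairpins was not tested against a spread between replicates.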

How the results depend on the processing

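No paired analysis was possible because all 4 libraries carry the same replicate number, with a single library per group. Of 304 alternative values, 231 were taken as unchanged, 67 moved and 6 changed sign. Unchanged meant inside the counting interval or, for counts, within 1.5 times, and moved meant outside these limits. Medians of the other subunits, 14 of the 231 and 2 of the 6, have neither limit. Shares of a paralogue under another length made up 42 of the 67. The leading paralogue of each position was the same under every length tried, including exons inside the deposited span, which was added after seeing the data. With log2(CPM + 1) the change of the Smarca4 to Smarca2 ratio from day 0 to Nons was 2.04. With the longest transcript the ATPase sum changed by -0.19 from day 0 to Nons. Centring on the median of all genes gave, against Nons, -0.46 for the ATPase sum in Smarca4.6, 0.17 and 0.23 for the SMARCC sum in Smarca4.4 and Smarca4.6, and 0.10 and 0.22 for the SMARCD and ACTL6 sums in Smarca4.6. Centring and trimmed-mean scaling turned Smarcd3 in Smarca4.4 to -0.024 and -0.029 and Smarcd2 in Smarca4.6 to -0.016 and -0.022. Centring also left 1 member at least 1.2-fold higher in Smarca4.6. Under a minimum mean log2 CPM of 3, 2 members were at least 1.2-fold and 0 at least 2-fold lower from day 0 to Nons, because Smarca2 and Smarcd3 fall under it. Without a filter Actl6b entered with 0 or 3 reads, which made 2 members 2-fold lower from day 0 to Nons, 2 members 1.2-fold higher and 1 member 2-fold different in Smarca4.4, and 1 member 1.2-fold higher and 1 2-fold different between the hairpins. The median of the other subunits from day 0 to Nons was -0.035 without a filter and -0.0049 after centring. At the depth of day 0, Smarcd3 rests on 139 reads, Smarcc2 on 260 and Smarca2 on 361, which sets the width of their intervals.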

Other observations

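Ratios between positions, from the sums per kb of exon, differed between libraries, by day and by hairpin. The ATPase sum divided by the SMARCC sum was 0.818 at day 0, 1.13 with Nons, 0.563 with Smarca4.4 and 0.701 with Smarca4.6, so the control day 6 library was the only one with more ATPase than SMARCC transcript per length. With the longest transcript as the length these ratios were 0.645, 0.862, 0.435 and 0.539, in the same order of libraries but below 1 throughout. The SMARCD sum divided by the SMARCC sum was 0.770 at day 0, 1.40 with Nons, 1.13 with Smarca4.4 and 1.29 with Smarca4.6. The ACTL6 to SMARCC ratio stayed between 0.885 and 0.968 in the 4 libraries, and between 1.28 and 1.39 with the longest transcript.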
